A study of Mus musculus with 21 samples.

Results

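The genes described here encode the Kv4 potassium channels and their auxiliary subunits. They are the 9 genes *Kcnd1*, *Kcnd2*, *Kcnd3*, *Kcnip1*, *Kcnip2*, *Kcnip3*, *Kcnip4*, *Dpp6* and *Dpp10*, chosen by name from the 52550 genes of the deposited count table. They were measured by bulk RNA-Seq in mouse spiral ganglion neurons (SGNs), the primary auditory neurons of the cochlea, of embryos at E15.5 and of pups and young mice at P1, P8, P14 or P30. The reference cells of the study were P12 hair cells (HCs) and P8 glial cells of the cochlea. Each of the 7 groups had 3 replicates, giving 21 libraries of C57BL/6 mice. The labels do not say whether replicates came from separate animals, so p-values measure the spread between these libraries.

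SGNs were picked by hand for tdTomato, expressed from the reporter Rosa26-CAG-loxp-stop-loxp-tdTomato(Ai9)/+ after recombination by ShhCre/+, in which Cre follows *Shh*, with 69 to 195 cells per library. HCs carried Atoh1-CreER+ and the same reporter after tamoxifen at P0 and P1, came from cochlear and vestibular organs together, and numbered about 1200 per library. Glial cells carried vGlut3-iCreER/+ and the same reporter after tamoxifen at P2 and P3, a line that also labels inner HCs, which were dissected away, with 86 to 125 cells per library. In libraries of pooled cells, fewer expressing cells and less RNA per cell cannot be told apart.

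Kv4 channels are voltage-gated potassium channels that open near the resting potential, inactivate within a short time and carry the somatodendritic A-type current of many neurons, which delays the first spike and limits repetitive firing. A pore is built of Kv4.1, Kv4.2 or Kv4.3 subunits, the products of *Kcnd1*, *Kcnd2* and *Kcnd3*. The cytoplasmic calcium-binding KChIP subunits, products of the *Kcnip* genes, bring the pore to the surface and shape its inactivation, and the membrane-spanning DPP-like subunits, products of *Dpp6* and *Dpp10*, are relatives of peptidases without enzymatic activity that bring the channel to the surface and speed its gating.

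The 9 genes lie on 8 chromosomes of GRCm38. *Kcnd1* (X:7822289-7838280, plus strand) has the shortest locus, whereas *Kcnip4* (5:48389502-49524907, minus strand) spans 1135.4 kb and *Dpp6* (5:26817203-27727505, plus strand) 910.3 kb. *Kcnd2* (6:21215503-21729805) and *Kcnd3* (3:105452330-105674002) lie on the plus strand. *Kcnip1* (11:33629339-33993152), *Kcnip2* (19:45791839-45816061), *Kcnip3* (2:127456498-127522094) and *Dpp10* (1:123321471-124045559) lie on the minus strand. Exons of 7 of the 9 genes overlap no exon of another gene in GENCODE M21. *Kcnd3* shares 165 exonic bases (1.7%) with the antisense gene *Kcnd3os*, which had at most 51 counts in a library, and *Kcnip4* shares 267 (7.4%) with *5730480H06Rik* and *Gm20700* on the other strand, which had at most 1236 and 34 counts. The strand setting of the counting is not given in the sources used here, so the levels of *Kcnd3* and *Kcnip4* may hold some reads of those neighbors.

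The promoters of the genes that changed together are shown because all 4 *Kcnip* genes rose between P1 and P8 while *Dpp10* ran the other way across development. Each is the 250 bases before the first listed start of the gene in RefSeq on GRCm38.p6, read 5′ to 3′ on the strand of the gene, and none overlaps an exon of GENCODE M21. The *Kcnip4* window lies inside the locus of that gene (5:48389502-49524907), before an internal start. The other windows shown lie outside their loci. Capitals mark matches, on either strand, to the E-box CAGCTG, to the GATA motif AGATAA and to TGCTGA, a half-site of the Maf recognition element. The cyclic AMP response element TGACGTCA and the TATA box TATAAA were also searched and had no match in these windows.
Kcnip1, chr11:33993194-33993443, minus strand: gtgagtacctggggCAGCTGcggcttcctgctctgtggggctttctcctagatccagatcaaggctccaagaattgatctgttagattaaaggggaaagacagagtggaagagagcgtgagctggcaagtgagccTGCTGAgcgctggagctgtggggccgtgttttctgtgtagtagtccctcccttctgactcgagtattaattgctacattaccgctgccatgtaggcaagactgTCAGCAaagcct
Kcnip2, chr19:45816064-45816313, minus strand: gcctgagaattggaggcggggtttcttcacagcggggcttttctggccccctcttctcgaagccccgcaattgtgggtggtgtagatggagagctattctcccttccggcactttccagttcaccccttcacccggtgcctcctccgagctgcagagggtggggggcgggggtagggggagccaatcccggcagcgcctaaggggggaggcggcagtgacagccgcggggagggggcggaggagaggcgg
Kcnip3, chr2:127522095-127522344, minus strand: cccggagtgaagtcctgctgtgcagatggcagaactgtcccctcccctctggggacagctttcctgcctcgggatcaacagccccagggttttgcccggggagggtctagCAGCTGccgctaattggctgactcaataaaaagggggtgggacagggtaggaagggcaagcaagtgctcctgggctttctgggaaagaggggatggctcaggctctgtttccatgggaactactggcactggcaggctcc
Kcnip4, chr5:49285660-49285909, minus strand: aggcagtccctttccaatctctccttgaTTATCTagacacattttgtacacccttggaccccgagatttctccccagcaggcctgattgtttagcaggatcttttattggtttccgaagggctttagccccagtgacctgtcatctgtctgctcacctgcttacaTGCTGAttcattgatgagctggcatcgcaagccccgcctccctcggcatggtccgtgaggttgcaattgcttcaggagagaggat
Dpp10, chr1:124045560-124045809, minus strand: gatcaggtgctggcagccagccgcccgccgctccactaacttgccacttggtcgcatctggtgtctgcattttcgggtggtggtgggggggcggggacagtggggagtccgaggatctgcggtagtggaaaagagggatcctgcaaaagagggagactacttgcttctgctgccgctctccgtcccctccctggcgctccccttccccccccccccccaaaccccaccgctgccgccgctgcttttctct

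No motif searched was shared by all 4 *Kcnip* windows. The E-box was found in *Kcnip1* and *Kcnip3* (13.0% of the 32841 RefSeq windows of this length hold it), TGCTGA was found in *Kcnip1* and *Kcnip4* (16.1% of windows) and AGATAA in *Kcnip4* (9.99% of windows). TGACGTCA and TATAAA are in 1.55% and 12.4% of windows. GC content was 52.8% in *Kcnip1*, 66.8% in *Kcnip2*, 60.0% in *Kcnip3*, 51.2% in *Kcnip4* and 65.2% in *Dpp10*, against a median of 52.4% over all windows. An entry was found for 8 of the 9 genes, and *Kcnip1*, *Kcnip3*, *Kcnip4* and *Dpp6* have more than 1 start, of which only the first listed is shown.

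Libraries held between 10368240 and 37287489 counts on genes. Levels are given below as normalized CPM, the count relative to the library size after TMM scaling, which is the scale of the tests, and as TPM, which also corrects for gene length, where genes are compared with each other. The scales order libraries differently: a gene of 1 kb at 1 CPM had between 0.825 and 2.70 TPM, with the lowest value in replicate 2 of E15.5 and the highest in HCs. All 5 HC markers averaged above 10 TPM in HCs, all 3 glial markers did in glial cells, and the 6 SGN markers averaged above 1 TPM at every SGN age and also in glial cells. Of the 5 HC markers, 4 also averaged above 10 TPM in SGNs at P1, 3 at P14 and 1 or 2 at the other ages. The HC markers summed to 53.0, 128.5 and 70.6 TPM in replicates 1 to 3 of P1 and to 189.7, 31.8 and 41.2 TPM at P14. Their sum in HCs was 2387 to 2810 TPM. The glial markers summed to 72.7, 5.84 and 16.8 TPM at P14, against 496 to 629 TPM in glial cells. The summed level of the SGN markers was 168 to 446 TPM at E15.5 and 742 to 2203 TPM at the later ages, and the share of counts on mitochondrially encoded genes was 9.57% to 13.5% at E15.5 and 16.4% to 24.2% later. The 8 Schwann myelin genes summed to 82.3 to 221 TPM in SGNs at P1 and 813 to 1491 TPM at P8, against 7309 to 9988 TPM in glial cells. The SGN markers summed to 117 TPM in replicate 1 of the glial cells, and to 32.5 and 13.9 TPM in the other replicates. The 3 markers of type II SGNs, which innervate outer HCs, also differed between replicates. They summed to 44.4, 182.8 and 29.6 TPM in replicates 1 to 3 of E15.5 and to 113.5, 7.83 and 4.34 TPM at P30. The part of these differences in the results below was not tested, except where a library was left out. All 9 genes passed the filter on low counts in both fits.

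**Figure D1:**
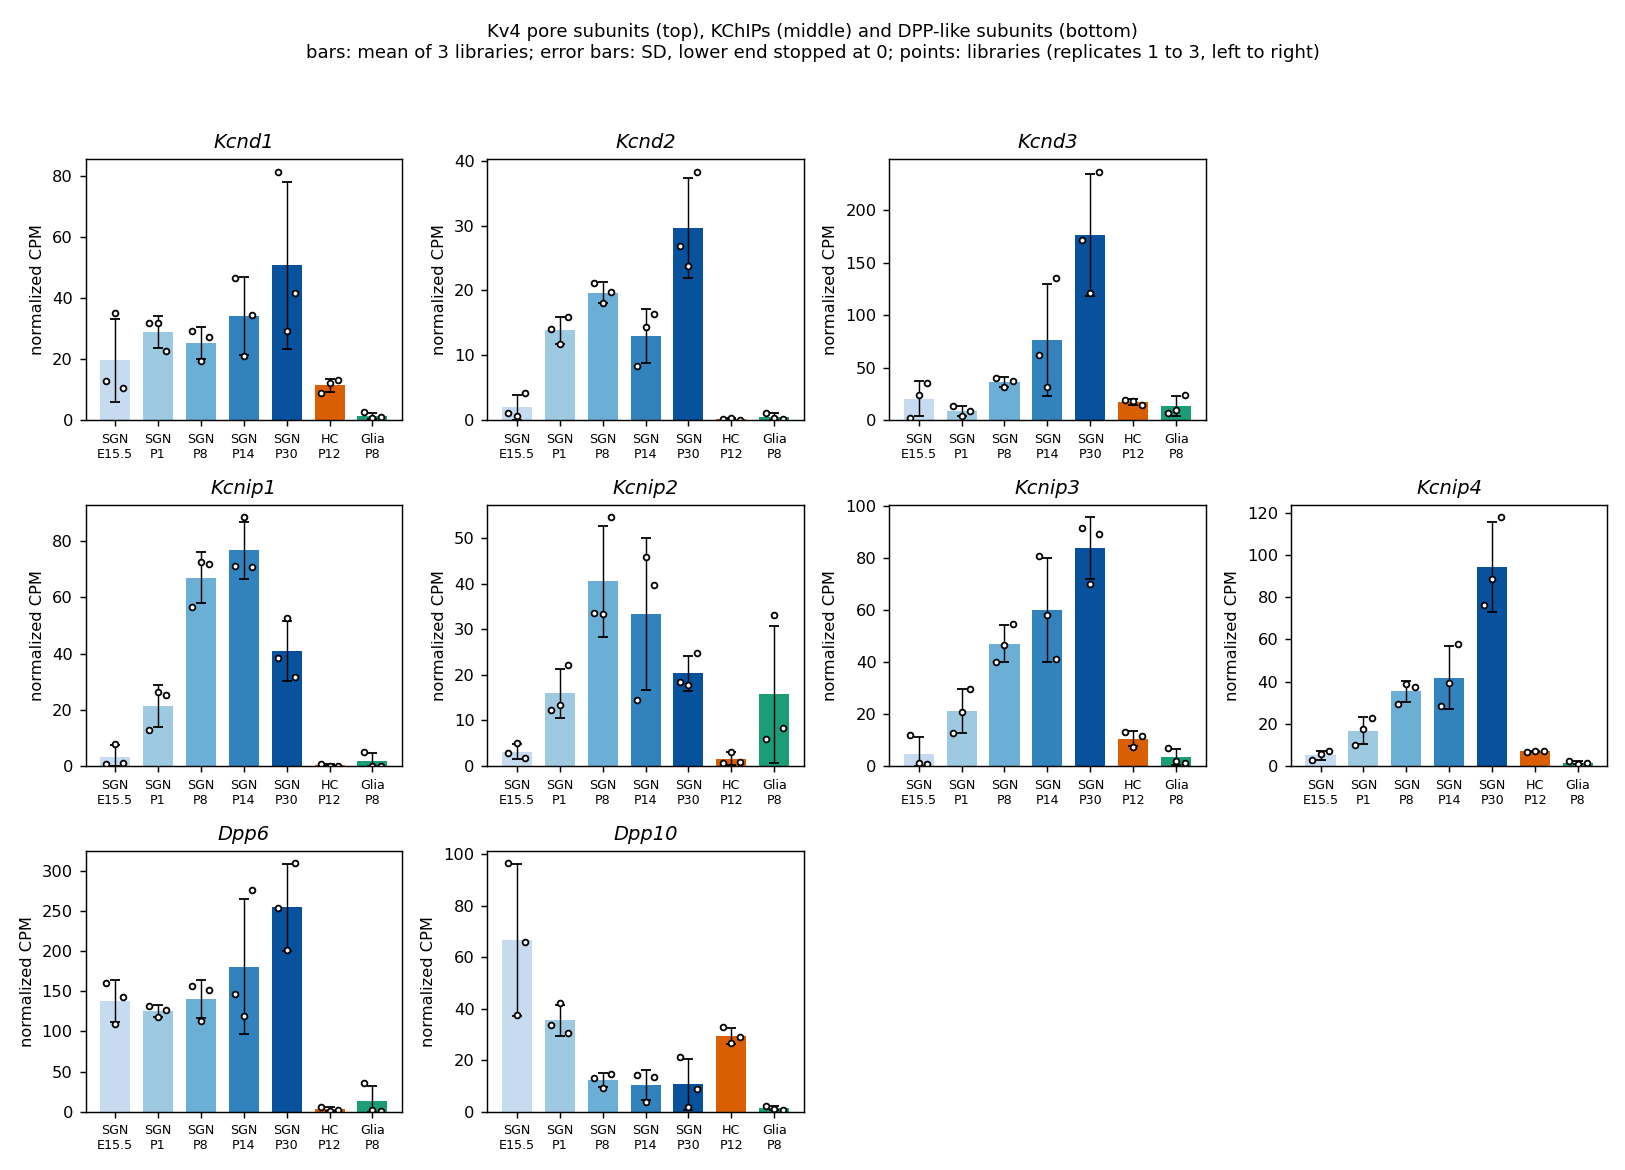
Normalized CPM (y axes, linear, starting at 0) of the 9 genes in SGNs at 5 ages, HCs and glial cells (x axes). Bars are means of 3 libraries, error bars the SD (its lower end stopped at 0) and open points the libraries. The 4 *Kcnip* genes are low at E15.5 and reach their highest mean at P8, P14 or P30, *Kcnd3* climbs to 176 at P30, and *Dpp10* falls from 66.5 at E15.5 to 10.6 at P30.

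By normalized CPM all 3 pore genes had their highest mean at P30, and all 3 had counts in every SGN library. They differed at the earlier ages. *Kcnd2* was low at E15.5 (mean 1.98 ± 1.92, SD, n = 3) and higher from P1 on, whereas *Kcnd3* had its lowest SGN mean at P1 (9.12 ± 4.80). *Kcnd1*, which encodes Kv4.1, had normalized CPM of 12.9, 35.1 and 10.7 at E15.5 (mean 19.6 ± 13.5, SD, n = 3) and 81.2, 29.2 and 41.5 at P30 (50.6 ± 27.2). The ages in between had means of 28.8 ± 5.26 at P1, 25.3 ± 5.20 at P8 and 34.0 ± 12.8 at P14. The ranges of neighboring ages overlapped throughout, and replicate 2 of E15.5 lay within the range of P30.

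*Kcnd2* encodes Kv4.2, the subunit best known from A-type currents of dendrites. Its normalized CPM was 1.07, 0.683 and 4.19 at E15.5 and 14.01, 11.8 and 15.9 at P1. The ranges do not overlap, and replicate 3 of E15.5 was the highest of its group. *Kcnd2* then had 21.2, 18.1 and 19.8 at P8, 8.36, 14.3 and 16.4 at P14, and 26.8, 23.8 and 38.3 at P30. P30 lay above every library of the other ages, and P14 below every library of P8. In the low group the counts themselves were 16, 14 and 86.

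*Kcnd3* encodes Kv4.3. Its normalized CPM at E15.5 ranged widely, with 2.48, 23.7 and 35.3, and was 13.9, 4.29 and 9.16 at P1 and 40.4, 31.7 and 37.2 at P8. At P14 it was 62.2, 31.8 and 135, and at P30 it was 172, 121 and 237. The libraries of P8 lay above those of P1 without overlap, and those of P30 overlapped the highest library of P14, replicate 3. Among the 3 pore genes *Kcnd3* had the highest TPM at P30 (21.1, 20.6 and 21.7), while *Kcnd1* had it at P1 (10.6, 9.65 and 10.7).

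The 4 *Kcnip* genes were low at E15.5 and higher at all later ages. *Kcnip1* (KChIP1) had normalized CPM of 0.671, 8.001 and 0.973 at E15.5, 12.9, 26.4 and 25.1 at P1, and 56.6, 72.4 and 71.9 at P8. It had 71.0, 88.4 and 70.8 at P14 and 38.3, 52.8 and 31.7 at P30. Its mean thus was highest at P14 (76.7 ± 10.1), no library of P30 reached any library of P8 or P14, and the libraries of P1 lay below those of P30. *Kcnip2* (KChIP2, the subunit that the fast transient outward current of the heart depends on) had 2.82, 4.98 and 1.66 at E15.5, 12.3, 13.3 and 22.2 at P1 and 33.5, 33.5 and 54.6 at P8. It had 14.4, 45.9 and 39.8 at P14 and 18.4, 17.8 and 24.8 at P30. It was highest at P8 (40.5 ± 12.2), where no library overlapped those of P1 or P30.

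*Kcnip3* encodes KChIP3, also known as calsenilin or DREAM, which besides binding Kv4 represses transcription and interacts with presenilins. Its normalized CPM was 12.1, 1.27 and 0.681 at E15.5, 12.8, 20.7 and 29.7 at P1, and 40.1, 46.5 and 54.5 at P8. It was 80.6, 58.0 and 41.2 at P14 and 91.6, 69.9 and 89.3 at P30. *Kcnip4* encodes KChIP4, which has a splice form that slows inactivation; the gene counts do not separate splice forms. Its normalized CPM was 2.75, 5.51 and 6.91 at E15.5, 10.1, 17.7 and 22.7 at P1, and 29.6, 39.0 and 37.6 at P8. It was 28.6, 39.3 and 57.8 at P14 and 76.2, 88.6 and 118 at P30. Both genes had their highest mean at P30 (83.6 ± 11.9 and 94.2 ± 21.4), but the libraries of P30 overlapped those of P14 for *Kcnip3* and did not for *Kcnip4*. Replicate 1 of E15.5 stood above the other E15.5 libraries for *Kcnip3*, with 180 counts against 26 and 14.

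The DPP-like genes went apart. *Dpp6* was at a high level from the first age: its normalized CPM was 161, 109 and 143 at E15.5 and 132, 118 and 126 at P1. It was 156, 113 and 151 at P8, 146, 119 and 277 at P14, and 254, 201 and 309 in the oldest SGNs, those of P30. Only at P30 did every library lie above every library of E15.5, P1 and P8. *Dpp10* had 96.5, 37.4 and 65.8 at E15.5 and 33.5, 42.4 and 30.6 at P1. It had 13.2, 9.31 and 14.5 at P8, 14.3, 3.64 and 13.3 at P14, and 21.2, 1.93 and 8.63 at P30. The libraries of E15.5 and P1 lay above all those of the 3 later ages, which overlapped among themselves.

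**Figure D2:**
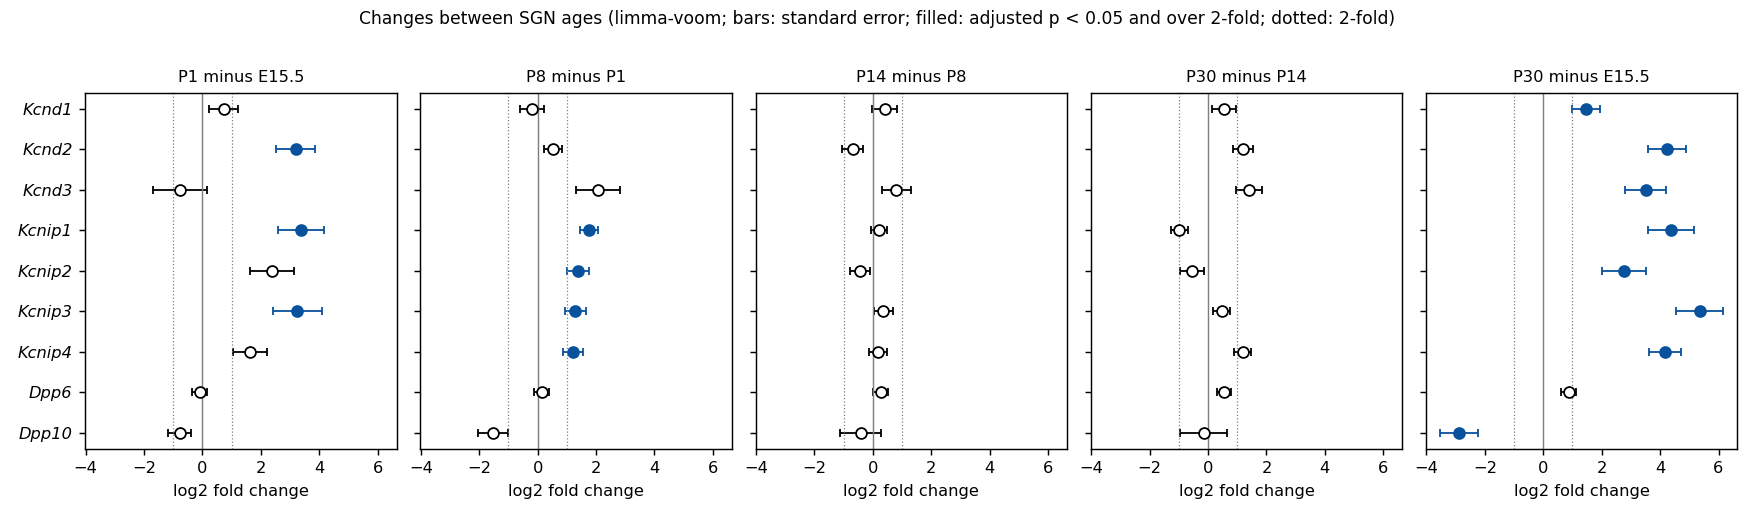
Log2 fold changes (x axes, the same range in every panel) of the 9 genes (y axis) between SGN ages, from limma-voom. Points are estimates, bars the standard error, filled points those past an adjusted p of 0.05 and a 2-fold change, and dotted lines mark 2-fold. The *Kcnip* genes hold 2 of the 3 filled points of E15.5 to P1 and all 4 of P1 to P8, no point is filled in P8 to P14 or P14 to P30, and *Dpp10* holds the only filled point to the left of 0.

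The ages were compared in 1 fit of the 15 SGN libraries, with 15113 genes tested, and a gene was called changed at an adjusted p under 0.05 and over 2-fold. Between E15.5 and P1, 3 of the 9 genes rose and none fell, against 8.26% of all genes tested that were called, 5.08% higher and 3.18% lower. They were *Kcnd2* (log2 fold change 3.19 ± 0.665, SE; limma adjusted p = 0.00685), *Kcnip1* (3.37 ± 0.791, adjusted p = 0.0127) and *Kcnip3* (3.25 ± 0.835, adjusted p = 0.0206). *Kcnip2* had a log2 fold change of 2.38 ± 0.760 (limma adjusted p = 0.0531) and *Kcnip4* one of 1.63 ± 0.588 (adjusted p = 0.0818). The median of the 9 genes was 1.63 and that of all genes 0.07. Without replicate 3 of E15.5 only *Kcnd2* was called, and with library quality weights none was; at an unadjusted p under 0.05, limma held 5 of the 9. Leaving out single libraries of E15.5 moved the sizes: *Kcnd2* had 2.56 without replicate 2 and 3.99 without replicate 3, *Kcnip1* had 2.79 without replicate 1 and 4.51 without replicate 2, and *Kcnip3* had 4.32 without replicate 1 and 2.47 without replicate 3. The summed SGN markers were also lower at E15.5, at 168 to 446 TPM against 742 to 861 TPM at P1, and the part of this in the results from E15.5 was not tested.

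Between P1 and P8 the 4 *Kcnip* genes rose, and the other 5 genes were not called in this fit, against 7.44% of all genes called, 4.29% higher and 3.15% lower. The log2 fold changes were 1.76 ± 0.315 for *Kcnip1* (limma adjusted p = 0.00167), 1.38 ± 0.382 for *Kcnip2* (adjusted p = 0.0281), 1.29 ± 0.366 for *Kcnip3* (adjusted p = 0.0306) and 1.203 ± 0.341 for *Kcnip4* (adjusted p = 0.0306). *Kcnd3*, at 2.08 ± 0.754 (limma adjusted p = 0.0905), and *Dpp10*, at -1.54 ± 0.510 (adjusted p = 0.0622), did not pass. Both were called with the replicate block (2.08 and -1.42; limma adjusted p = 0.0282 and 0.0247), with library quality weights, in the 2-group fit and without replicate 1 of E15.5. *Dpp10* was also called with library size as the only scaling and without replicate 2 of E15.5 or replicate 1 or 2 of P30. That same scaling lost the calls of *Kcnip3* and *Kcnip4*, and DESeq2 lost that of *Kcnip3*. Of the *Kcnip* genes, only *Kcnip1* was called with no filter on low counts or without any 1 of replicates 1 and 2 of P1 and replicate 3 of P8, *Kcnip1* and *Kcnip2* were called without replicate 2 of P8, and edgeR's quasi-likelihood test called none. The summed Schwann myelin genes were also higher at P8 than at P1, from 82.3 to 221 TPM against 813 to 1491 TPM, and the part of this in the result was not tested. In glial cells at P8, *Kcnip2* had 5.86, 33.1 and 8.35 normalized CPM, of which replicate 2 lay above every SGN library of P1 and just under those of P8. The glial values of *Kcnip1* (5.14, 0 and 0), *Kcnip3* (6.80, 2.10 and 1.16) and *Kcnip4* (2.44, 0.788 and 1.65) lay below every SGN library of P1 and P8.

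After P8 few changes passed. Between P8 and P14 none of the 9 genes was called by limma, by edgeR or by DESeq2, and none had an unadjusted p under 0.05 in any of these tests, against 0.536% of all genes called by limma, 0.251% higher and 0.285% lower. Between P14 and P30 none was called by these tools either, against 0.0596% of all genes called by limma, 0.0331% higher and 0.0265% lower. At an unadjusted p under 0.05 limma held 5 of the 9 (*Kcnd2*, *Kcnd3*, *Kcnip1*, *Kcnip4* and *Dpp6*), and edgeR and DESeq2 held 2 each (*Kcnd2* and *Kcnip4*). The log2 fold change of *Kcnip4* was 1.18 ± 0.278 (limma adjusted p = 0.163). With the replicate number as a block, which the libraries of P14 and P30 share by their correlated deviations, *Kcnip4* was called (1.16 ± 0.219, limma adjusted p = 0.0419). *Kcnip1* had -0.98 ± 0.293 in the fit without the block (limma adjusted p = 0.341).

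Across the whole span from E15.5 to P30, 8 of the 9 genes changed, 7 higher and 1 lower, against 34.6% of all genes called, 18.4% higher and 16.2% lower. *Kcnip3* rose the most in this fit (log2 fold change 5.36 ± 0.806, 41.0-fold; limma adjusted p = 7.4e-05). *Kcnip1* rose by 4.37 ± 0.780 (20.6-fold), *Kcnd2* by 4.22 ± 0.651 (18.7-fold), *Kcnip4* by 4.18 ± 0.546 (18.1-fold), *Kcnd3* by 3.50 ± 0.698 (11.3-fold) and *Kcnip2* by 2.76 ± 0.758 (6.75-fold). *Dpp10* fell by 2.88 on the log2 scale (SE 0.645; limma adjusted p = 0.00209). Single libraries moved these sizes by more than 1.5 times. *Kcnip3* had 6.42 without replicate 1 of E15.5 and 4.56 without replicate 3, where *Kcnd2* with 5.02 stood above it. *Kcnip1* had 3.77 without replicate 1 and 5.49 without replicate 2, *Kcnd3* had 2.52 without replicate 1 and 4.205 without replicate 3, and *Kcnd2* had 3.59 without replicate 2 of that age. *Dpp10* had -3.89 without replicate 1 of P30 and -2.07 without replicate 2. *Dpp6* had 0.87 ± 0.254 (limma adjusted p = 0.012), under the 2-fold limit, and *Kcnd1* 1.47 ± 0.487 (adjusted p = 0.0237), a call that was lost without replicate 1 or 3 of E15.5 or replicate 1 of P30, with library size as the only scaling, with quality weights and in the 2-group fit. The F test over the 5 ages held 8 of the 9 genes, against 37.8% of all genes, and did not hold *Kcnd1* (limma adjusted p = 0.161).

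**Figure D3:**
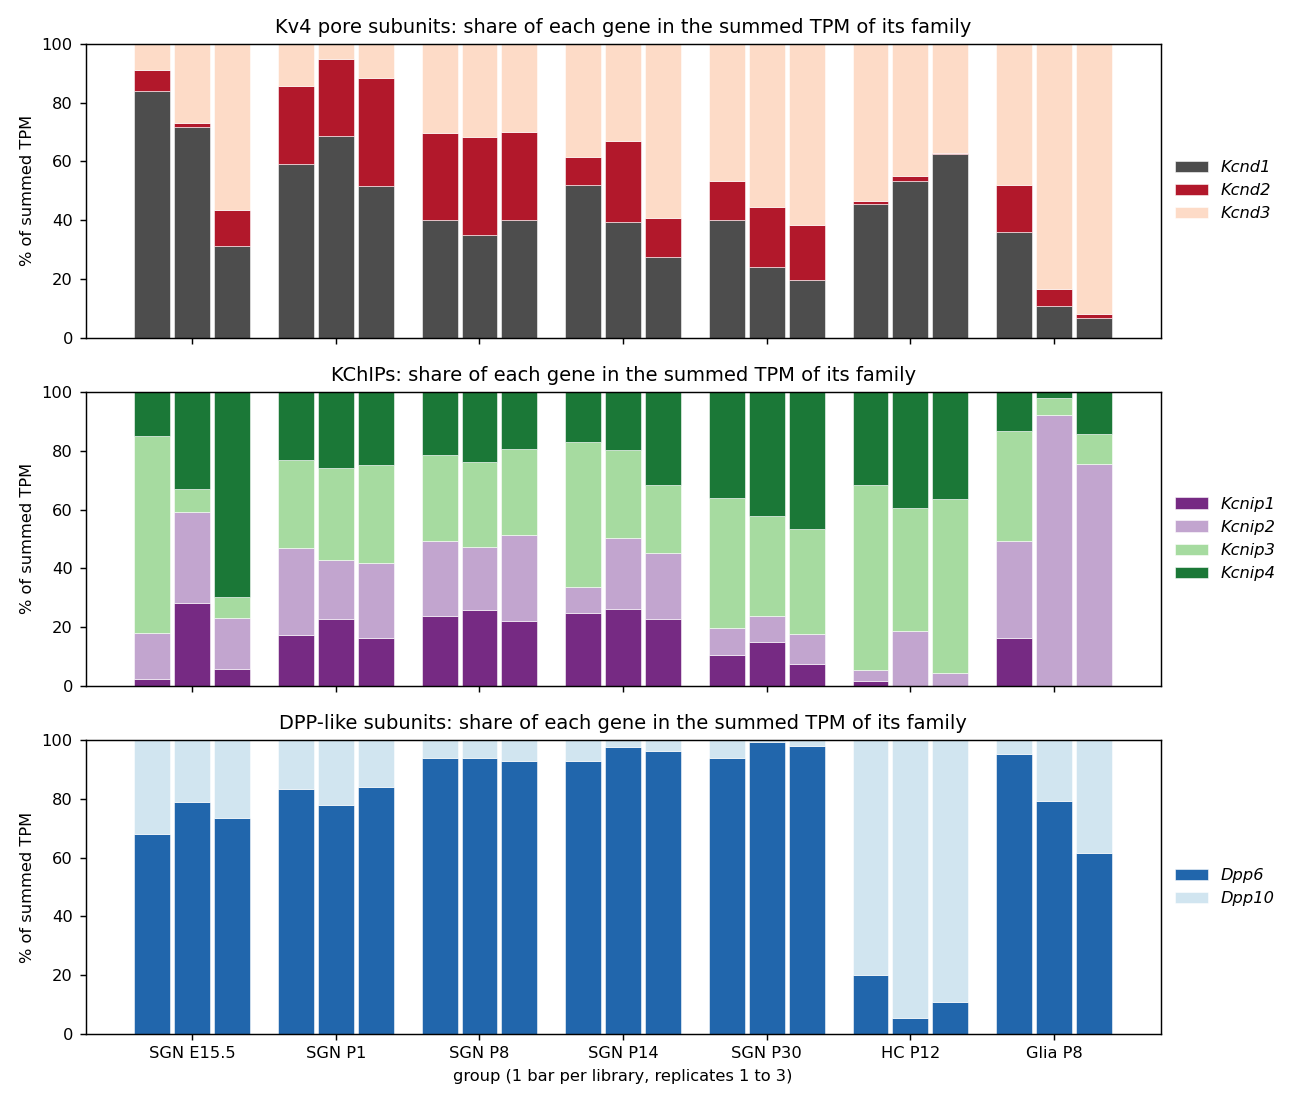
Share of each gene in the summed TPM of its family (y axes, percent), with 1 stacked bar per library. In the top panel *Kcnd3* widens from 10.3% of the pore transcripts at P1 to 54.6% at P30, after 30.7% ± 24.0 (SD) at E15.5. In the middle panel *Kcnip4* takes 41.6% at P30 and 39.25% ± 27.95 at E15.5. In the bottom panel *Dpp6* makes up over 93% from P8 on in SGNs on average and *Dpp10* 88.0% in HCs.

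The make-up of each family shifted with age in SGNs, which was described from TPM shares within each library and not tested. Among the pore genes *Kcnd1* held 59.8% ± 8.61 (SD, n = 3) of the summed TPM at P1 and 27.9% ± 10.6 at P30. *Kcnd3* held 10.3% ± 4.65 at P1, 30.7% ± 0.749 at P8 and 54.6% ± 7.63 at P30, with no overlap between P1 and the later ages. At E15.5 the shares spread widely: *Kcnd1* held between 31.1% and 83.9%, and *Kcnd3* between 8.92% and 56.5%. *Kcnd2* held 29.9% ± 6.13 at P1, 31.0% ± 2.12 at P8 and 17.5% ± 3.54 at P30.

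Among the *Kcnip* genes the 4 shares were close to each other at P1 and P8, between 18.7% and 31.5% on average. By P30 *Kcnip3* held 38.2% ± 5.42 and *Kcnip4* 41.6% ± 5.26, and *Kcnip1* and *Kcnip2* had 10.9% ± 3.71 and 9.38% ± 0.711. At E15.5 these shares spread widely, with *Kcnip3* between 7.04% and 67.0% and *Kcnip4* between 14.9% and 69.8%. The P30 shares of both genes lay within these ranges. *Dpp6* held 73.5% ± 5.40 of the DPP-like transcripts at E15.5, 81.8% ± 3.28 at P1 and 93.6% ± 0.504 at P8. The summed TPM of the *Kcnip* genes was 0.889 ± 0.747 times that of the *Kcnd* genes at E15.5 and 2.11 ± 0.915 times at P1. This ratio was 3.73 ± 0.845 for P8, 3.42 ± 1.76 for P14 and 1.93 ± 0.537 for P30. The libraries of P8 (2.76 to 4.31) lay above those of P30 (1.51 to 2.54), and those of P1 overlapped both. The ratio of the DPP-like genes to the *Kcnd* genes was 3.40 ± 2.82 at E15.5 and 0.644 ± 0.0761 at P30, and the ranges of these ages did not overlap.

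**Figure D4:**
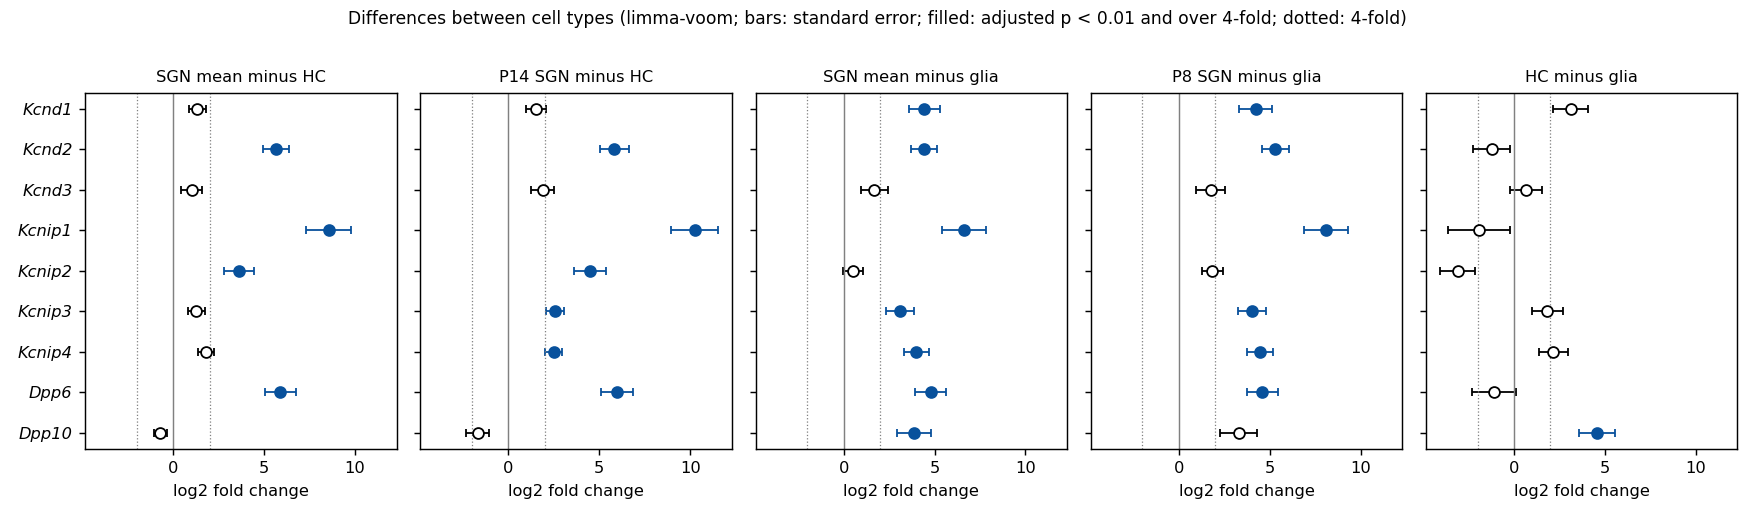
Log2 fold changes (x axes, the same range in every panel) of the 9 genes (y axis) between cell types, from limma-voom. Points are estimates, bars the standard error, filled points those past an adjusted p of 0.01 and a 4-fold change, and dotted lines mark 4-fold. *Kcnd2*, *Kcnip1* and *Dpp6* are filled in all 4 panels that set SGNs against HCs or glial cells, and *Dpp10* alone is filled between HCs and glial cells.

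Against HCs, *Kcnd2*, *Kcnip1*, *Kcnip2* and *Dpp6* were higher in SGNs. HCs at P12 had *Kcnd2* at 4, 8 and 2 counts, *Kcnip1* at 10, 0 and 0 counts, *Kcnip2* at 12, 74 and 20 and *Dpp6* at 108, 27 and 68. A count of 0 in HCs allows up to 0.175 and 0.167 CPM in replicates 2 and 3 if each count is an independent event. This limit covers counting error only, since the reads carried no molecular identifiers. Counts from 1 to 20 were even in a median of 67.9% of cases, so counts may not be independent and the limit may be too low. In the fit of all 21 libraries and 17531 genes, with a call at an adjusted p under 0.01 and over 4-fold, these 4 of the 9 genes were higher in the mean of the 5 SGN ages and none was lower, against 26.8% of all genes called, 10.5% higher and 16.2% lower. The log2 differences were 5.66 ± 0.740 for *Kcnd2* (limma adjusted p = 1.6e-06), 5.90 ± 0.850 for *Dpp6* (adjusted p = 5.62e-06), 3.62 ± 0.839 for *Kcnip2* (adjusted p = 0.00105) and 8.54 ± 1.26 for *Kcnip1* (adjusted p = 7.56e-06). The value of *Kcnip1* depends on the small count added before the logarithm, since HC counts were at 0 in 2 of 3 libraries, and is not read as a fold. The call of *Kcnip2* was lost without replicate 3 of the HCs, and without replicate 2 *Kcnip2* had 4.34 and *Dpp6* 5.31. Each comparison below that names HCs or glial cells uses these same 3 libraries of each.

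HCs did hold transcripts of the other 5 genes. Their normalized CPM was 9.02, 12.1 and 13.2 for *Kcnd1*, 19.2, 18.6 and 14.1 for *Kcnd3*, and 12.9, 7.32 and 11.5 for *Kcnip3*. It was 6.59, 7.02 and 7.18 for *Kcnip4* and 32.7, 26.6 and 29.1 for *Dpp10*. Every HC library held each of these genes, and *Kcnip3* varied the most among them relative to its level. Per length, *Kcnd1* and *Kcnd3* made up 53.8% ± 8.63 and 45.1% ± 8.20 of the pore transcripts of HCs, *Kcnip3* and *Kcnip4* made up 54.8% ± 11.3 and 35.8% ± 3.92 of the KChIP transcripts, and *Dpp10* made up 88.0% ± 7.46 of the DPP-like transcripts. Of the SGN markers, *Gata3*, which HCs are also known to express, had 36.4 to 41.5 TPM in the HC libraries, and the other 5 summed to 7.93 to 17.4 TPM.

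*Kcnip4* differed between SGNs and HCs by 1.83 ± 0.436 (limma adjusted p = 0.00138), under the 4-fold limit. *Kcnd1* (1.33 ± 0.454, limma adjusted p = 0.0185), *Kcnd3* (1.02 ± 0.564, adjusted p = 0.135), *Kcnip3* (1.28 ± 0.476, adjusted p = 0.0288) and *Dpp10* (-0.70 ± 0.377, adjusted p = 0.123) did not pass. The mean over the ages joins low and high ages, so the nearest age was also compared: P14 SGNs had 6 of the 9 genes higher than P12 HCs and none lower, against 23.1% of all genes called, 10.9% higher and 12.2% lower. *Kcnip3* (2.55 ± 0.506, limma adjusted p = 0.000344) and *Kcnip4* (2.49 ± 0.475, adjusted p = 0.000231) joined the 4 genes above. Without replicate 2 of the HCs *Kcnip2* had 5.19 and *Dpp6* 5.38. With library size as the only scaling *Kcnip3* and *Kcnip4* were lost and *Dpp10* was called lower; that scaling moved the median of all genes in this comparison by -0.71 on the log2 scale.

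The place of *Dpp10* in the order of levels turned on the scale. By mean TPM its highest group was HCs (6.69 ± 0.494), followed by E15.5 SGNs (6.35 ± 3.77), whose libraries overlapped those of HCs. By normalized CPM, E15.5 came first (66.5 ± 29.5), then P1 (35.5 ± 6.11) and HCs (29.5 ± 3.05), with overlap between neighbors. On both scales the 3 later SGN ages lay below HCs without overlap, and glial cells last. The other 8 genes had their highest group among the SGN ages on both scales; the age changed from P14 by TPM to P30 by normalized CPM for *Kcnd1*, *Kcnip3* and *Dpp6*.

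Glial cells at P8 held little of most of the 9 genes. Their normalized CPM was 2.70, 0.700 and 0.970 for *Kcnd1*, 1.19, 0.350 and 0.194 for *Kcnd2*, and 2.44, 0.788 and 1.65 for *Kcnip4*. For *Kcnip1* it was 5.14, 0 and 0, for *Dpp6* 35.5, 2.63 and 0.970, and for *Dpp10* 2.18, 0.875 and 0.776. Replicate 1, the glial library with the highest SGN markers, was the highest of the 3 for all 6 of these genes and for *Kcnip3* (6.80, 2.10 and 1.16). *Kcnd3* was highest in replicate 3 (6.54, 9.72 and 24.4) and *Kcnip2* in replicate 2 (5.86, 33.1 and 8.35), so these genes did not follow the SGN markers.

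In the mean of the 5 SGN ages, 7 of the 9 genes were higher than in glial cells and none was lower, against 24.7% of all genes called, 14.3% higher and 10.4% lower. The log2 differences were 4.44 ± 0.868 for *Kcnd1* (limma adjusted p = 0.000251), 4.42 ± 0.724 for *Kcnd2* (adjusted p = 3.82e-05), 3.99 ± 0.691 for *Kcnip4* (adjusted p = 7.2e-05) and 4.79 ± 0.840 for *Dpp6* (adjusted p = 8.29e-05). *Kcnip1* (6.62 ± 1.21, limma adjusted p = 0.000129), *Kcnip3* (3.11 ± 0.766, adjusted p = 0.00204) and *Dpp10* (3.87 ± 0.948, adjusted p = 0.00198) were the others, and *Kcnip1* was at 0 in 2 of 3 glial libraries, so its value is not read as a fold. *Kcnd3* (1.69 ± 0.741, limma adjusted p = 0.0646) and *Kcnip2* (0.53 ± 0.548, adjusted p = 0.445) did not pass, and the median of all genes was 0.22. Without replicate 1 of the glial cells the same 7 genes were called, and *Dpp6*, *Kcnip3*, *Kcnd1* and *Kcnd2* had larger differences (6.58, 3.94, 5.07 and 5.13), while *Kcnip1* then stood against libraries at 0. *Kcnip3* and *Dpp10* were lost without replicate 2 or 3, *Dpp6* had 3.695 without replicate 3, and library quality weights left none of the 9 called.

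At the matched age of P8, 6 of the 9 genes were higher in SGNs than in glial cells, against 20.9% of all genes called, 13.4% higher and 7.53% lower: *Kcnd1* (4.23 ± 0.904, limma adjusted p = 0.000805), *Kcnd2* (5.30 ± 0.745, adjusted p = 1.17e-05), *Kcnip1* (8.11 ± 1.22, adjusted p = 2.41e-05), *Kcnip3* (4.02 ± 0.780, adjusted p = 0.000326), *Kcnip4* (4.48 ± 0.709, adjusted p = 4.2e-05) and *Dpp6* (4.60 ± 0.860, adjusted p = 0.000227). *Dpp10* (3.30 ± 1.01, limma adjusted p = 0.0122), *Kcnip2* (1.84 ± 0.573, adjusted p = 0.0133) and *Kcnd3* (1.77 ± 0.797, adjusted p = 0.0793) did not pass. Higher *Dpp10* was called with edgeR, DESeq2, the replicate block and the 2-group fit. It was also called without replicate 1 or 2 of E15.5, replicate 2 of P14 or replicate 1 or 2 of P30. Without replicate 2 of the glial cells *Kcnip2* was called. *Kcnip1* again stood against glial counts of 0 in 2 of 3 libraries, so its value is not read as a fold. Without replicate 1 of the glial cells *Kcnd1* had 4.86, *Kcnd2* 6.01, *Kcnip3* 4.85 and *Dpp6* 6.395, and without replicate 3 *Dpp6* had 3.51. *Kcnip2* made up 66.9% ± 30.5 of the KChIP transcripts of glial cells by TPM and *Kcnd3* 74.5% ± 23.4 of the pore transcripts.

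Between the reference cells, limma called 1 of the 9 genes, *Dpp10*, higher in HCs (log2 difference 4.57 ± 0.985, adjusted p = 0.000818), against 24.4% of all genes called, 16.2% higher and 8.18% lower. *Kcnd1* (3.12 ± 0.960, limma adjusted p = 0.0117) and *Kcnip2* (-3.09 ± 0.965, adjusted p = 0.0127) lay just outside the limit, *Kcnip4* had 2.16 ± 0.795 (adjusted p = 0.0318), and edgeR and DESeq2 called these 3 as well. Leaving out replicate 2 of E15.5, replicate 2 of P14 or replicate 1 or 2 of P30, which enter the fit through the shared spread, added *Kcnd1* to *Dpp10*, leaving out replicate 1 of P14 added *Kcnd1* and *Kcnip2*, and leaving out replicate 1 of the glial cells added *Kcnip2*. *Kcnip2* had 0.712, 3.19 and 0.807 normalized CPM in HCs, below every glial library.

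Other genes tied to A-type channels were followed as lists of 36 genes, of which 35 matched a symbol and 26 were tested between ages. From E15.5 to P1, 4 were higher and none lower, where 8.26% of all genes were called. From P1 to P8, 5 were higher and 4 lower (7.44% of all genes called), and from P8 to P14, 3 were higher and none lower (0.536%). From P14 to P30 limma called none (0.0596%), with 2 of the 26 at an unadjusted p under 0.05. From E15.5 to P30, 9 were higher and 7 lower (34.6%); the median log2 fold change of the 26 over the whole span was 0.19, against 3.50 for the 9 genes and -0.01 for all genes. Of the other pore subunits of A-type currents, *Kcna4* (Kv1.4) was highest in HCs, at 22.8 ± 3.80 TPM, and averaged under 1 TPM at each SGN age.

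Of the other auxiliary subunits reported to act on Kv4, 4 of 10 were tested between ages and 3 rose from E15.5 to P30. Over this whole span 34.6% of all genes were called, 18.4% higher and 16.2% lower. *Kcnab2*, a cytoplasmic beta subunit of Kv1 channels, went from 8.56 ± 2.52 to 143 ± 30.4 TPM (log2 fold change 4.198 ± 0.271, limma adjusted p = 1.12e-08). It also rose between P8 and P14 (1.28 ± 0.171, limma adjusted p = 0.00131), where none of the 9 genes was called. The visinin-like sensor *Vsnl1* rose by 6.12 ± 0.426 on the log2 scale over the whole span (limma adjusted p = 2.8e-08), and the related *Hpca* (hippocalcin) fell by 3.87 (SE 0.938, limma adjusted p = 0.00376), so that neuronal calcium sensors were called 2 higher and 2 lower among the 6 tested.

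Of the 9 scaffold, trafficking and kinase partners, 1 rose (*Camk2g*) and 4 fell (*Akap5*, *Flna*, *Nedd4l* and *Dlg1*) from E15.5 to P30. Of all genes, 18.4% were called higher and 16.2% lower in this comparison. *Akap5*, an anchor for protein kinase A and calcineurin, fell by 4.40 (SE 0.660, limma adjusted p = 7.25e-05) and *Flna*, the actin-binding filamin A, by 3.25 (SE 0.416, adjusted p = 1.44e-05). Of the T-type calcium channels, *Cacna1h* (Cav3.2) fell from 29.5 ± 11.4 TPM at E15.5 to 2.446 ± 3.11 TPM at P30 (log2 fold change -3.97 ± 0.644, limma adjusted p = 0.000146). The peptidases *Dpp8* and *Dpp9* rose by 1.81 ± 0.176 and 1.25 ± 0.307 on the log2 scale (limma adjusted p = 8.35e-07 and 0.00419).

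Against the reference cells, 28 of the 36 genes were tested. In the mean of the SGN ages, 9 were higher and 3 lower than in HCs (26.8% of all genes called), and 12 were higher and 2 lower than in glial cells (24.7%). Between the reference cells, 5 were higher in HCs and 2 higher in glial cells, a share close to the 24.4% of all genes called. *Kcnc4* (Kv3.4) had 12.3 to 21.2 TPM on average at the SGN ages and under 0.3 TPM in both reference cells.

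The genes whose pattern over the 21 libraries was most like each of the 9 were found among 12301 genes by Pearson's r of log2(TPM + 1), as a description, since libraries share cell type and depth. *Kcnip1* was most like *Car10* (r = 0.968) and *Scn1a* (r = 0.967), *Kcnip3* like *Dnajc27* (0.952) and *Srxn1* (0.947), and *Kcnip4* like *Arhgap44* (0.967) and *Fndc5* (0.965). *Kcnip2* had the least alike neighbors, *Qrsl1* (0.874) and *Pdzd2* (0.851). Of the pore genes, *Kcnd1* was most like *Tmem130* (0.943), *Kcnd2* like *Ankrd34b* (0.950) and *Kcnd3* like *Fam19a2* (0.891). *Dpp6* was most like *Syn2* (0.975) and *Prkar1b* (0.974), and *Dpp10* like *Runx1t1* (0.966) and *Ccdc88c* (0.952). None of the 9 genes was among the 2 closest to another of them. *Kcnd2* and *Dpp10* could not have been, since their highest group means (6.74 and 6.69 TPM) were under the 10 TPM that neighbors needed.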

How the data were processed

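Per the labels and the paper's methods, the authors picked or sorted labelled cells, amplified RNA with the NuGEN Ovation RNA-Seq V2 kit, mapped reads to mm10 with STAR 2.4.0i and counted them on GENCODE vM15 genes with featureCounts. They deposited 1 table of raw counts with a length for 52550 genes. Counts from 1 to 20 were even in a median of 67.9% of cases; the pair and strand settings of the counting are not given in the sources used here. Every deposited column was matched to a sample.

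TPM was computed here from counts and deposited lengths. Symbols came from GENCODE M21 (52403 genes matched), promoters from RefSeq. Counts were TMM-scaled (edgeR 4.0.16) and fitted with voom, group means and two-sided tests of limma 3.58.1 under R 4.3.3, with Benjamini-Hochberg adjustment over all genes tested. Genes needed CPM over 1 in all replicates of a group. Thresholds follow the paper's methods: 2-fold and 0.05 between ages, 4-fold and 0.01 between cell types. Alternatives were other scalings, no filter, edgeR's quasi-likelihood test, DESeq2 1.42.0, quality weights, a replicate block, 2-group fits and each library left out. The text names all 9 genes, members of the fixed lists where a list is described, and for each of the 9 (highest group mean of at least 5 TPM) the 2 genes of most like pattern among those with a highest group mean of at least 10 TPM.

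The fit was tested on simulated data with 100 changed genes. Of 4-fold changes it recovered 40% for E15.5 to P1 and 46% for P14 to P30. For SGNs against HCs, where a call itself needs over 4-fold, it recovered 22%. Of 16-fold changes it recovered 69%, 68% and 62% in these comparisons, so changes of these sizes can go uncalled. Replicates of a group differed beyond sampling noise, so none was merged. Same-numbered libraries of P14 and P30 deviated together (r = 0.414, 0.297 and 0.151), as did those of P8 and P30 and of P1 and P14, by a limit of over 0.1 for each of the 3 numbers. P1 and P8 (0.404, 0.074 and 0.168), P8 and P14 (0.386, 0.163 and 0.069) and P1 and P30 (0.328, 0.068 and 0.132) passed it for 2 of the 3 numbers. E15.5 and P1 (-0.079, -0.076 and 0.079) and E15.5 and P30 (-0.09, -0.181 and 0.008) passed it for none. The replicate block was applied to the comparisons from E15.5 as well. Python 3.11.15, pandas 2.3.3 and matplotlib 3.10.9 were used. The 9 genes and the lists were chosen with earlier results of these data known. Some members of the lists are not reported here by name.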

Additional observations from a re-analysis of the deposited data

How the results depend on the processing

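Depth limits the low groups: 3 counts equal 0.0805 to 0.289 CPM, and with 3 libraries a group a missed threshold does not show that levels were equal. The counts of genes called moved with the processing as follows, and the cause was not tested. For E15.5 to P1 (3 called), DESeq2 and the replicate block called 5, the 2-group fit 1, quality weights 0, and leaving out 1 library 1 to 4. For P1 to P8 (4 called), no filter called 1, edgeR's quasi-likelihood test 0, the replicate block, quality weights and the 2-group fit 6 each, with *Kcnd3* and *Dpp10* added, and leaving out 1 library 1 to 6. For P14 to P30 (0 called), quality weights called 2 and the replicate block 1. For SGNs against glial cells (7 called), quality weights called 0, and 2 of the 6 called at P8; leaving out 1 library gave 5 to 7. For HCs against glial cells (1 called), DESeq2 size factors and the 2-group fit called 2, library size alone 3, edgeR, DESeq2 and the replicate block 4, quality weights 0, and leaving out 1 library 1 to 3. All 9 genes had their highest group among the SGN ages by TMM-scaled CPM, and 8 by TPM.

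The replicate block moved no other count by over 1.5 times, and the labels do not say whether the numbers pair P1 with P8. DESeq2 gave no adjusted p for *Kcnip1* against HCs and glial cells. Directions turned only for genes that were not called: with library size alone *Dpp6* had -0.072 from P1 to P8, and with DESeq2 *Kcnip2* had -0.00697 in SGNs against glial cells. Leaving out 1 library gave ranges across 0 of -0.28 to 0.014 for *Dpp6* from E15.5 to P1; of -0.79 to 0.14 for *Kcnip2*, -0.064 to 0.43 for *Kcnip4*, -0.052 to 0.51 for *Dpp6* and -0.84 to 0.21 for *Dpp10* from P8 to P14; of -1.13 to 0.70 for *Dpp10* from P14 to P30; of -0.11 to 1.23 for *Kcnip2* in SGNs against glial cells; and of -3.52 to 0.46 for *Kcnip1* and -2.21 to 0.68 for *Dpp6* in HCs against glial cells. Library size alone moved the median of all genes by -0.48 on the log2 scale from E15.5 to P30, by -0.56 in SGNs against HCs and by 0.49 in HCs against glial cells.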
